A study of Mus musculus with 32 samples.

Results

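The cytoplasmic ribosomal protein genes were followed in RNA sequencing of the mouse lower male urogenital tract. They were taken as every gene whose symbol begins with Rpl or Rps and a digit, or with Rplp. Of 98 such symbols, 10 Rps6k kinases and 5 numbered pseudogenes were left out, which gave 83 of the 13780 genes measured. They comprised 43 large-subunit proteins, 30 small-subunit proteins, the 3 P stalk proteins, 5 paralogues or like genes (Rpl3l, Rpl7l1, Rpl22l1, Rpl36al and Rps27l), Rps4y2 and Rps19bp1. The symbol alone brought in Rps19bp1, which encodes a binding partner of a ribosomal protein. RefSeq lists Rps4y2 as Rps4l, a transcribed pseudogene. Rpsa, Fau and Gnb2l1 (Rack1) also encode ribosomal proteins but do not carry such symbols.

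The ribosome is built from ribosomal RNA and a fixed set of proteins, of which the cell needs about equal numbers, and their messenger RNAs are among the most abundant in any tissue. Most of these messengers begin with a run of pyrimidines, the 5′ terminal oligopyrimidine motif, through which the mTOR pathway and Larp1 control their translation and stability. A few subunits have paralogues whose use depends on the tissue, such as Rpl3l, known from skeletal and heart muscle. The messengers are short, so that a trend of a library with transcript length reaches them.

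There were 8 groups of 4 libraries from C57/BL6 mice. Male mice kept implants under the skin for 2 weeks, which held 25 mg of testosterone and 2.5 mg of oestrogen and are called T+E2 here, or stayed untreated. The prostatic urethra and 2 lobes of the prostate, anterior (AP) and dorsal lateral (DLP), were dissected from adults. Urogenital sinus (UGS), the embryonic tissue that gives rise to the prostate, came from male E16.5 embryos and was cultured with testosterone or without hormone, the 6 days of culture being stated for the testosterone arm. Implants act on the whole animal and each sample was a whole piece of tissue. In such samples fewer cells of a type and less RNA per cell cannot be told apart. Libraries are named by the submitters' numbers or letters, and values of a group follow the order 2, 3, 17, 18 (AP T+E2), 6, 7, 8, 9 (AP control), 1, 2, 18, 24 (DLP T+E2), 7, 8, 9, 10 (DLP control), 1, 2, 3, 4 (urethra T+E2), 6, 7, 8, 10 (urethra control), B, C, G, H (testosterone) and A, C, D, H (no hormone).

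The first bases of these transcripts are shown because the pyrimidine run is the sequence feature the genes are known for. RefSeq starts (GRCm38.p6) were found for 61 of the 83 genes. Each window holds 15 bases before and 15 bases from the most upstream start, on the transcribed strand. Capitals mark a C followed by at least 4 pyrimidines (C or T) that opens within 5 bases of the start.
Rpl12: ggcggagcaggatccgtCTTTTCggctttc
Rps24: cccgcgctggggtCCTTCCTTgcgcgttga
Rps6: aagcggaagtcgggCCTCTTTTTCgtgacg
Rplp2: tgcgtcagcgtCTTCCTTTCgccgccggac
Rpl38: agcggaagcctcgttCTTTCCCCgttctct
Rps27l: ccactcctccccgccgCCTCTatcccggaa
Rpl22l1: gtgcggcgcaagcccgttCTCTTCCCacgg
Rpl7l1: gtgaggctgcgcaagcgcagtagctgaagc
Rpl36al: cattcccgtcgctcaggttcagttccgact
Rpl3l: gagtgttctagctctgtcatttgacctctg
The windows lie as follows: Rpl12 at chr2:32961697-32961726 (plus strand), Rps24 at chr14:24490663-24490692 (plus strand), Rps6 at chr4:86857353-86857382 (minus strand), Rplp2 at chr7:141447636-141447665 (plus strand), Rpl38 at chr11:114668565-114668594 (plus strand). The paralogues are Rps27l at chr9:66946071-66946100 (plus strand), Rpl22l1 at chr3:28805493-28805522 (plus strand), Rpl7l1 at chr17:46782642-46782671 (minus strand), Rpl36al at chr12:69184053-69184082 (minus strand), Rpl3l at chr17:24727811-24727840 (plus strand). Of the 61 windows, 28 (45.9%) held such a run, against 4993 of 27025 windows of all genes (18.5%). Of 67 mitochondrial ribosomal protein genes, 16 (23.9%) held one. By role, 26 of 55 subunit and stalk genes (47.3%) and 2 of 5 paralogues (40%) held one. The subunit and stalk windows printed here all hold a run and are thus not typical. The windows of Rpl7l1, Rpl36al and Rpl3l held none, nor did those of Rplp0 and Rpl23, which are not printed. A window without a run says only that these letters are missing near the annotated start.

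Values are TPM, a gene's share of a library's transcripts after division by transcript length, so that genes can be compared with each other. Sequencing depth is unknown, since TPM does not keep it. Library sums over the measured genes lay between 994133 and 997961 TPM. In the check of tissue labels, AP and DLP carried the prostate secretory gene Pbsn in every library, and UGS carried Shh and Hoxd13, with Pbsn listed at 0 in all 4 testosterone libraries. Urothelial genes were mixed as marks of the urethra. Among untreated tissues Upk1a had its highest mean there (284 TPM, against 20.8 in AP and 149 in DLP), as had Krt13, at only 0.445 TPM. Upk1b, Upk2 and Upk3a had higher means in untreated DLP, and Upk3a stood at most at 1.09 TPM in urethra. In T+E2 AP, Upk1a stood at 633 TPM. Untreated urethra also held Pbsn, at 548 to 6304 TPM. Of AP, 3 libraries held seminal vesicle transcripts, at 9.91% (T+E2 library 17), 7.2% (T+E2 library 18) and 5.42% (control library 9) of TPM, against at most 0.198% in the other 5. They made up 15.2% to 26.6% of every DLP library. In untreated DLP most of this was Svs2 (mean 105689 TPM), Svs5 (70313) and Pate4 (28832.5 TPM). Svs1, Svs3a and Svs6 of the same list stood at only 25.1, 40.7 and 194 TPM. How much seminal vesicle tissue the DLP samples held was not tested. Skeletal muscle genes made up 5.95% to 9.94% of the urethra libraries.

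Ribosomal protein transcripts took between 7.51% and 23.9% of TPM. In UGS without hormone they made up 19.1, 22.4, 20.4 and 23.9% in libraries A, C, D and H. In UGS with testosterone they made up 16.1, 17.8, 16.1 and 21.5% in libraries B, C, G and H. Both UGS arms overlapped, library H being the highest of each. Untreated AP held 18, 18.2, 16.1 and 16% in libraries 6, 7, 8 and 9. T+E2 AP held 13.9, 13.4, 11.7 and 14.2% in libraries 2, 3, 17 and 18, all below the untreated AP libraries. Untreated DLP held 9.52, 10.1, 11.5 and 10.2% and T+E2 DLP 9.32, 9.31, 9.98 and 9.02%, which overlap. Untreated urethra held 7.95, 7.82, 8.13 and 7.68% and T+E2 urethra 7.51, 8.72, 8.91 and 8.44%, which overlap too. UGS with testosterone overlapped untreated AP in this share. Most genes shared the ends of the range, UGS without hormone and untreated urethra. Of the 83 genes, 74 had their highest group mean in UGS without hormone and 71 their lowest in untreated urethra.

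**Figure D1:**
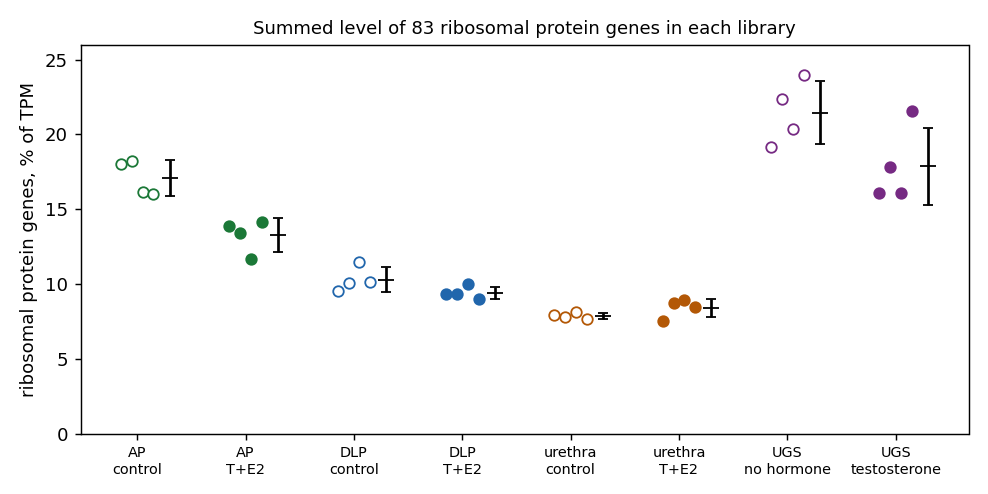
Summed TPM of the 83 ribosomal protein genes as a percentage of all TPM, 1 point per library, filled for hormone arms. The bar beside each group is the mean ± SD of its 4 libraries. The T+E2 AP libraries (11.7% to 14.2%) lie below the untreated AP libraries (16% to 18.2%), while the arms of the other tissues overlap.

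Single genes spanned a wide range of levels. Averaged over the 32 libraries, Rpl10, a large-subunit protein near the peptidyl transferase centre, was highest at 3504 TPM, followed by Rpl41 at 3426 and the stalk protein Rplp1 at 3375 TPM. The median gene stood at 1647 TPM, against 19.0 TPM for all genes. 8 genes stayed under 150 TPM. They were Rpl34 (29.8), Rps19bp1 (35.4), Rpl26 (43.4), Rpl30 (50.4), Rpl7l1 (65.7), Rpl3l (72), Rps4y2 (74.3) and Rps27 (89.4 TPM).

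For several of these the level depends on how reads of near-identical copies were shared out. The pseudogene Rpl34-ps1 stood at 2668 ± 181 TPM (SD, n = 4) in untreated AP, where Rpl34 itself stood at 40.6 ± 6.37 TPM. Gm15772, for which RefSeq gives Rpl26 as a synonym, stood at 3321 ± 268 TPM there, against 34.9 ± 16.4 for Rpl26. Rps27 split libraries of the same group into low and high values. In untreated AP it read 13.6, 131, 155 and 112 TPM, and in untreated DLP 6.09, 232, 5.49 and 7.76 TPM. Values of Rpl26, Rpl34 and Rps27 are therefore uncertain; they stay in the counts, and none is named with a fold change.

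The first comparison asked whether 2 weeks of T+E2 changed these transcripts in AP. Most of them fell. Of 82 genes tested, 54 were lower with T+E2 and 1 was higher, while 12.9% of all 12525 genes tested were lower and 21.6% higher. A gene was called at an adjusted p under 0.05 (limma on log2(TPM + 1), Benjamini-Hochberg over all genes tested). The median log2 fold change of the 82 was -0.33, against 0.07 for all genes. The groups did not overlap for 55 of them in the lower direction and 1 in the higher, against 13.0% and 21.4% of all genes. By role, 29 of 43 large-subunit, 23 of 30 small-subunit and 2 of 3 stalk genes fell, and none of the 4 paralogues tested did. Rpsa, Fau and Gnb2l1, outside the symbol rule, fell as well, by 0.32, 0.53 and 0.46 on the log2 scale.

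The 2 largest falls were in the stalk and at its base. Rplp1, an acidic protein of the stalk that recruits elongation factors, read 4451, 4263, 3545 and 3833 TPM in untreated libraries and 2530.1, 2173, 2175 and 2832 with T+E2. Every T+E2 library lay below every untreated one, and the log2 fold change was -0.73 ± 0.12 (SE), adjusted p = 0.000714. Rplp0, the stalk's anchor, read 3065, 3069, 3043 and 2723 TPM untreated and 2339.5, 2094, 2054 and 2201 with T+E2, also without overlap (-0.45 ± 0.08 (SE), adjusted p = 0.00174). Its call was lost with quantile normalization (-0.12). Rplp2, the partner of Rplp1, read 2671, 2663, 2184 and 2299 TPM untreated and 2219.9, 1706, 1780.3 and 2564 with T+E2. Its groups overlapped and it was not called (-0.26 ± 0.14 (SE), adjusted p = 0.165). Rpl12 sits at the base of the stalk. It read 3205, 3174, 3130.4 and 2929 TPM untreated and 2175, 2001, 1557 and 1838 with T+E2, without overlap (-0.73 ± 0.11 (SE), adjusted p = 0.000441).

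Among small-subunit genes, Rps20, a protein of the head of the subunit, read 2949, 3084, 2587 and 2703 TPM untreated and 1899, 1799, 1517 and 1964 with T+E2, without overlap (-0.66 ± 0.10 (SE), adjusted p = 0.000628). Rps24, mutated in some cases of Diamond-Blackfan anaemia in people, read 2722, 2499, 1885 and 2131 TPM untreated and 1407, 1399.9, 1439 and 1842 with T+E2. T+E2 library 18 came closest to the untreated range, and the log2 fold change was -0.60 ± 0.13 (SE), adjusted p = 0.00582. Rpl23, a large-subunit protein that can bind Mdm2, read 2289.8, 2229, 1832 and 1822 TPM untreated and 1282, 1340.1, 1294 and 1570.0 with T+E2, again without overlap (-0.57 ± 0.11 (SE), adjusted p = 0.00206). Rps6, the phosphorylated target of the S6 kinases, changed less. It read 2282, 2334, 2015 and 2022 TPM untreated and 1812, 1977, 1592 and 1822 with T+E2, without overlap (-0.27 ± 0.09 (SE), adjusted p = 0.0473). Its call was lost with quantile normalization, with no filter, in the 5 AP libraries with little seminal vesicle RNA, and when any library but T+E2 library 3 was left out.

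The exception was Rpl7l1, a paralogue of Rpl7 known for a part in ribosome assembly. It read 66.8, 64.2, 67.2 and 67.1 TPM untreated and 79, 86.8, 81.9 and 71.8 with T+E2, so that every T+E2 library lay above (0.26 ± 0.07 (SE), adjusted p = 0.013). Its parent Rpl7 fell from 2509 ± 218 to 1994 ± 116 TPM (SD, n = 4 each; -0.33 ± 0.09 (SE), adjusted p = 0.0154), a call lost with quantile normalization and without control library 6 or 7. Rpl36al, Rpl22l1 and Rps27l were not called, at log2 fold changes of 0.02, 0.18 and 0.16. Over the 76 subunit and stalk genes the SD of the log2 fold change was 0.18 and the middle of the distribution ran from -0.45 to -0.27 (quartiles).

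**Figure D2:**
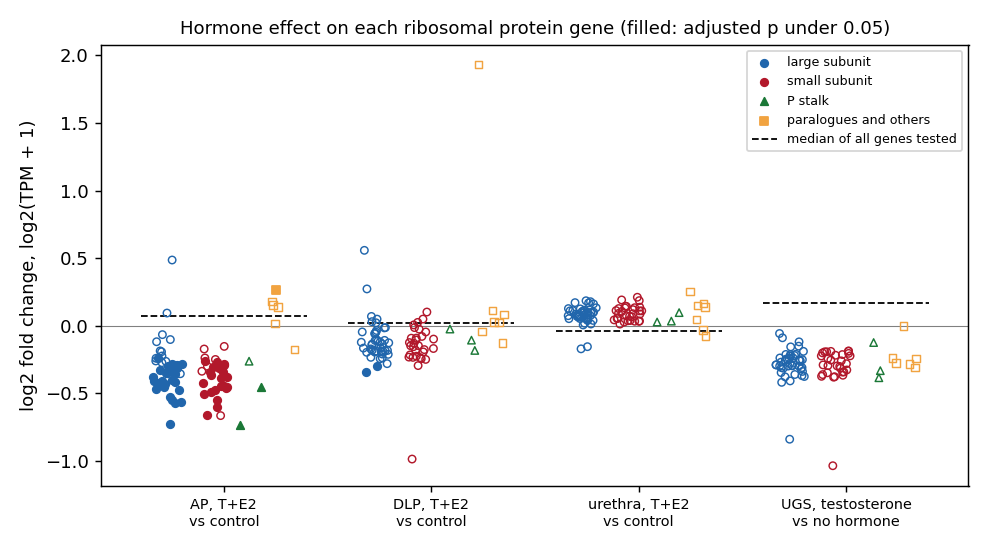
Log2 fold change of each ribosomal protein gene tested in the 4 hormone comparisons, on the log2(TPM + 1) scale, filled where the adjusted p was under 0.05. Dashed lines are the medians of all genes tested. In AP most genes lie below the dashed line and are filled, in urethra none is filled.

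The AP count depended on 2 untreated libraries. Without control library 6 it was 32 lower and 2 higher, and without control library 7 it was 30 lower, while leaving out any other library gave 47 to 55 lower. Both are the untreated libraries with the most ribosomal protein RNA. Quantile normalization gave 26 lower, beside 21.0% of all genes, and median-of-ratios scaling gave 59, beside 18.4%. These scalings also changed the split of all called genes, from 2706 higher and 1617 lower to 2174 and 2305 (median-of-ratios) and 1993 and 2625 (quantile). Pbsn, an abundant secretory transcript, stood at 54271 ± 3426 TPM untreated and 12790.5 ± 1436 with T+E2 (SD, n = 4), and it is among the abundant secretory genes. With these and the mitochondrially encoded genes taken out and the rest rescaled, 55 ribosomal protein genes were lower and 2 higher, beside 11.8% and 28.5% of all genes. Without the 3 AP libraries rich in seminal vesicle transcripts, 49 genes were lower and 2 higher. Shares of all genes are not given for this fit or for those leaving out 1 library, so these counts stand without that background. In all 18 planned settings, those leaving out 1 library included, 20 genes were lower, among them Rplp1, Rpl12, Rpl23, Rps20, Rps24 and Rps4x. The leukocyte genes moved too, 4 of 8 lower (Cd74 by 1.82) and 1 higher (Cd52 by 2.22 on the log2 scale). They summed to 0.0713% to 0.125% of TPM untreated and 0.088% to 0.144% with T+E2. Cd52 went from a mean of 213 TPM to 898 TPM and Cd74 from 397 to 114, so the sum hides the falls. The part of these genes in the result was not tested.

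The other genes of translation were taken as lists, whose counts stand beside the 12.9% of all genes lower and 21.6% higher. Of 33 genes listed for initiation 5 were lower and 0 higher, with a median of 0.01. Pabpc1, the poly(A) binding protein whose messenger also carries a pyrimidine run, fell by 0.99, Eif1 by 0.36 and Eif3f by 0.35 on the log2 scale. Of 12 genes listed for elongation 2 were lower and 1 higher, Tpt1 falling by 0.55 and Eef1b2 by 0.36. The higher one was Eif5, at 0.28. Eif5 and Eif5b of this list are initiation factors, so these counts are of lists and not of functions. Of 47 ribosome biogenesis genes 6 were higher and 3 lower. Fbl, the methyltransferase of ribosomal RNA, rose by 0.98 and Nhp2 by 0.59, while Rrp9 fell by 0.54. Of 15 genes that control these messengers 2 were higher and 2 lower. Eif4ebp1 fell by 0.96 and Myc by 0.74, while Max rose by 0.30 and Tsc2 by 0.29. Of 76 mitochondrial ribosomal protein genes 8 were higher and 7 lower, with a median of 0.06, and of 77 short subunits of oxidative phosphorylation 15 were higher and 2 lower.

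Transcript length was set against this. A library's length slope is the change in log2(TPM + 1), relative to the gene's mean over the tissue's 8 libraries, per doubling of transcript length, fitted without the ribosomal protein genes. The 83 genes had a median length of 714 bases against 2123 for all genes (GENCODE M21). In AP the slopes ran from -0.056 to 0.027 with T+E2 and from -0.016 to 0.049 untreated, so the arms overlapped. Other AP genes of 400 to under 600 bases had a median log2 fold change of 0.09 and ribosomal protein genes of that length -0.34. At 900 to under 1500 bases the values were 0.07 and -0.33. After a length curve was removed from each library, 68 ribosomal protein genes were lower and 1 higher, beside 19.1% and 18.5% of all genes, and the median was -0.40. Before removal 12.9% of all genes were lower and 21.6% higher, so the shares of all genes moved too. How much of the change in the count came from length was not tested.

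**Figure D3:**
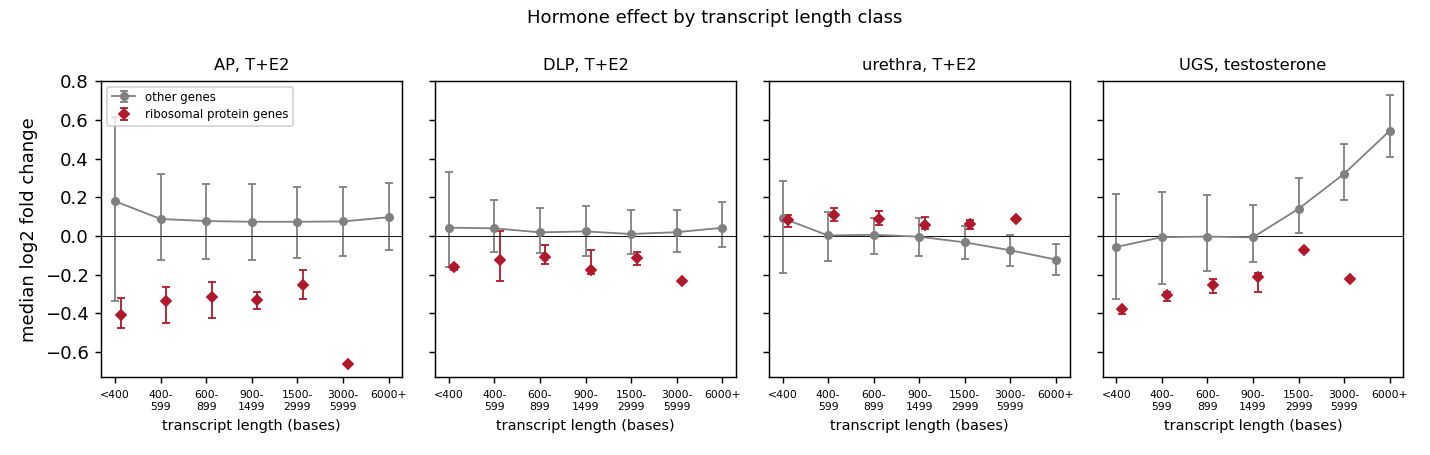
Median log2 fold change (points) with quartiles (bars) by transcript length class, for ribosomal protein genes (red) and other genes (grey), in the 4 hormone comparisons. In AP the medians of other genes lie between 0.07 and 0.10 from 400 bases up, while in UGS they climb to 0.54 at 6000 bases or more.

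In DLP the same implants gave few calls. Of 83 genes tested 2 were lower and 0 higher, beside 4.63% and 6.09% of all 13108 genes (limma). At an unadjusted p under 0.05, 23 were lower and 2 higher, beside 10.6% and 14.3% of all genes. Rpl23a, a protein at the exit tunnel, read 1741, 1872, 2037 and 1711 TPM untreated and 1429, 1406, 1448 and 1505 with T+E2, without overlap (-0.34 ± 0.08 (SE), adjusted p = 0.0264). Rpl23 read 1269, 1298, 1415 and 1198 TPM untreated and 1010.1, 1023, 1057 and 1119 with T+E2, also without overlap (-0.30 ± 0.08 (SE), adjusted p = 0.0394). Rpl12 and Rplp1, which fell most in AP, stood at -0.19 ± 0.11 and -0.18 ± 0.10 (SE) and were not called. The median over the 83 was -0.13, against 0.02 for all genes, and the groups did not overlap for 19 downwards (7.41% of all genes) and 0 upwards (8.92%).

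The DLP count moved with several choices. It was 0 without T+E2 library 1, 2, 18 or 24 or without control library 8, 1 without control library 9 or 10, and 5 without control library 7. One gene was higher without T+E2 library 2 or without control library 9. It was 14 with quantile normalization, beside 9.5% of all genes (all called genes then split 983 higher and 1245 lower, from 798 and 607), and 14 with the length trend removed, beside 8.28%. Skeletal muscle transcripts were richest in T+E2 library 18 (0.31% of TPM) and T+E2 library 24 (0.339%), with at most 0.113% in the other 6 DLP libraries. Without both, no gene was called and 9 were lower at an unadjusted p under 0.05 (limma). In the main fit 10.6% of all genes were lower at that p, and the share in the smaller fit is not given here. Of 8 leukocyte genes 3 were lower (Cd74 by 1.93, Ptprc by 1.03 and Coro1a by 0.87 on the log2 scale) and 0 higher, at a summed 0.231% to 0.363% of TPM untreated and 0.215% to 0.297% with T+E2. Cd52, which was not called, was the largest part of this sum, at a mean of 1750 TPM untreated and 2115 with T+E2. The part of the leukocyte genes in the result was not tested.

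In urethra no ribosomal protein gene was called in either direction (limma), and none had an unadjusted p under 0.05, which 4.46% of all genes had upwards and 10.2% downwards. By the adjusted p, of all 12985 genes 0.2% were higher and 0.162% lower. The values leaned upwards, 79 of 83 log2 fold changes being above 0 with a median of 0.09, against -0.04 for all genes. The arms did not overlap for 4 genes upwards (2.3% of all genes) and 0 downwards (5.8%). Rplp1 read 4052, 3462, 3359 and 3341 TPM untreated and 3142, 3932, 3944 and 3558 with T+E2, and the arms overlapped. Rps6 read 848, 857, 924 and 824 TPM untreated and 865, 966, 1020.3 and 924 with T+E2, and the arms overlapped. T+E2 library 1 was the lowest of its arm for Rplp1 and Rps6. No setting tried here gave a call in this tissue.

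Whether the T+E2 effect differed between tissues was tested as such, in fits of 16 libraries. Against urethra, the AP effect differed for 53 of 83 genes, 52 more negative in AP and 1 more positive, beside 6.93% and 15.7% of all genes. Rpl12 differed by -0.85 ± 0.15 (SE), adjusted p = 0.000664. Rplp1 differed by -0.77 ± 0.16, Rps20 by -0.75 ± 0.14, Rps24 by -0.72 ± 0.17 and Rpl23 by -0.67 ± 0.13 (SE). Rpl7l1 was the positive one, at 0.34 ± 0.09 (SE), adjusted p = 0.00915. The median over the 83 was -0.42, against 0.11 for all genes; median-of-ratios scaling moved the all-gene median by more than 0.1, to -0.01, and gave 66 more negative, beside 12.7% of all genes. Quantile normalization gave 20 more negative, beside 12.2%, with a median of -0.18 against -0.03 for all genes. The all-gene split of 2085 more positive and 922 more negative became 1420 and 1693 with the former and 1285 and 1623 with the latter. The contrasts with urethra and with DLP share the AP libraries.

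Against DLP, the AP effect differed for 3 genes, all more negative in AP, beside 3.14% of all genes more negative and 6.33% more positive. They were Rplp1 (-0.55 ± 0.15 (SE), adjusted p = 0.0284), Rpl12 (-0.54 ± 0.16 (SE), adjusted p = 0.0388) and Rpl13 (-0.51 ± 0.15 (SE), adjusted p = 0.036). Rpl13, a large-subunit protein, read 2114, 2047, 1776 and 1886 TPM in untreated AP and 1939, 1535, 1432 and 1746 with T+E2, and the groups overlapped. In DLP it read 949.8, 1024, 1219.6 and 1103 TPM untreated and 1323, 1306, 1377 and 1173 with T+E2. At an unadjusted p under 0.05, 22 were more negative in AP and 1 more positive, beside 7.96% and 15% of all genes. With recurring library numbers taken as a block, no ribosomal protein gene was called. The count of called genes was 0 without AP T+E2 library 17, AP control library 6 or 7, DLP T+E2 library 18 or DLP control library 10. It was 1 without AP T+E2 library 3, DLP T+E2 library 1 or DLP control library 7 or 8, 5 without AP T+E2 library 18 or AP control library 9, and 6 without DLP control library 9. All called genes split 835 more positive and 414 more negative, 844 and 702 with median-of-ratios scaling and 697 and 607 with quantile normalization. The count was 20 with the length trend removed, beside 5.7% of all genes more negative. Between DLP and urethra no gene differed (limma), beside 1.09% of all genes more negative and 2.39% more positive in DLP. At an unadjusted p under 0.05, 29 were more negative and 1 more positive, beside 5.17% and 12.2% of all genes. All called genes split 321 more positive and 146 more negative, 368 and 315 with median-of-ratios scaling and 344 and 413 with quantile normalization. Without DLP T+E2 library 2 or DLP control library 7, 1 gene differed.

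In cultured UGS the question was the response to testosterone alone. No ribosomal protein gene of 82 tested was called (limma), beside 0.301% of all 13304 genes lower and 1.43% higher, and 33 were lower and 0 higher at an unadjusted p under 0.05, beside 4.52% and 27.6% of all genes. The arms did not overlap for 3 genes downwards (2.64% of all genes) and 0 upwards (8.19%). Letters C and H recur in both arms. With the letters taken as a block a few ribosomal protein genes were called lower, without a share of all genes given here. The direction was shared, 81 of 82 being negative with a median of -0.28, against 0.17 for all genes. Median-of-ratios scaling moved the all-gene median by more than 0.1, to -0.002, put the genes' median at -0.46 and called 1, beside 0.699% of all genes. Quantile normalization put the all-gene median at -0.02 and that of the ribosomal protein genes at -0.06. The split of all called genes went from 190 higher and 40 lower to 170 and 93 and to 166 and 133. Rps28, a small-subunit protein, read 3157, 3794, 3247 and 3698 TPM without hormone and 2307, 2707, 2444 and 3316 with testosterone (-0.38 ± 0.13 (SE), adjusted p = 0.129). Rplp2 read 2543, 3219, 2891 and 2966 TPM without hormone and 2043, 2384, 1889 and 2629 with testosterone (-0.38 ± 0.12 (SE), adjusted p = 0.127). In both, testosterone library H reached the range of the arm without hormone.

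The count rested on that library. Without testosterone library H, 54 genes were lower, with a median of -0.38, and of all 13286 genes 4091 were higher and 445 lower. Leaving out any other UGS library gave 0. The libraries also differed in their length slopes. With testosterone these were 0.16 in library B, 0.03 in library C, 0.18 in library G and -0.07 in library H. Without hormone they were 0.005 in library A, -0.10 in library C, -0.05 in library D and -0.15 in library H. Library H of the testosterone arm thus lay among the libraries without hormone in slope as in ribosomal protein share. Across the 8 UGS libraries, each taken relative to its group mean, the slope and the median deviation of the ribosomal protein genes had r = -0.97 and rho = -0.90, as a description of libraries that share a scaling.

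Over all 32 libraries the same relation had r = -0.81 and rho = -0.75, and r = -0.72 without the 2 libraries farthest out. In AP (n = 8) r was -0.61 and rho -0.67. In DLP (n = 8) r was -0.75 and rho -0.43, and r became 0.30 without the 2 farthest libraries. In urethra (n = 8) r was -0.37 and rho -0.19, and r became 0.09 without the 2 farthest. Other UGS genes of 400 to under 600 bases had a median log2 fold change of -0.006 and those of 6000 or more 0.54, while ribosomal protein genes of 400 to under 600 bases had -0.31 and those of 600 to under 900 bases -0.25. With the length curve removed the median stayed at -0.27, and with the longest transcript as the length it was -0.13, with no call in either. Short subunits of oxidative phosphorylation had a median of -0.25 and mitochondrial ribosomal protein genes -0.15 in the same comparison, none called. Among the 76 subunit and stalk genes themselves, the UGS log2 fold change rose with transcript length (r = 0.48, rho = 0.61). With the curve removed r was 0.27 and rho 0.49. In AP, DLP and urethra rho was 0.05, -0.06 and -0.26 before removal and 0.07, 0.07 and -0.09 after it.

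**Figure D4:**
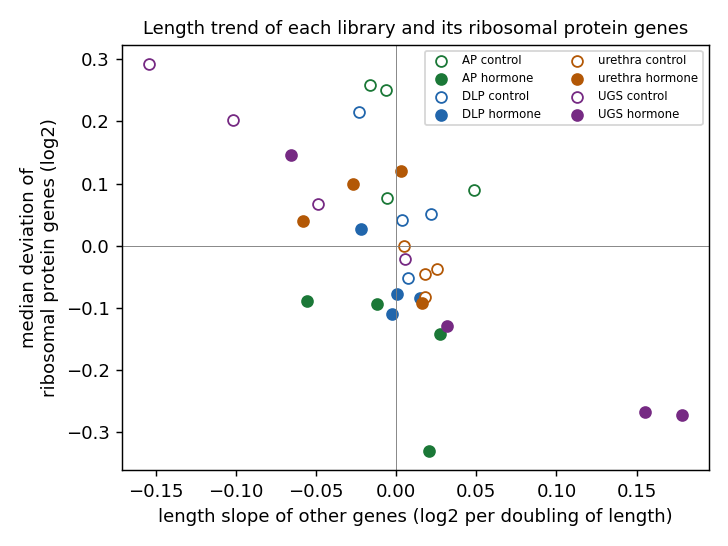
Median deviation of the ribosomal protein genes (y, log2) against the length slope of all other genes (x, log2 per doubling of length), both relative to the means over the 8 libraries of a tissue, 1 point per library. UGS libraries run from the upper left to the lower right, with slopes from -0.15 to 0.18, while the AP arms separate on the y axis and overlap on the x axis.

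The untreated tissues were compared in 1 fit of 12 libraries. In AP 79 of 83 genes were higher than in DLP and 0 lower, beside 36.1% and 23.5% of all 13356 genes, with a median of 0.71. Rps27a, a fusion of ubiquitin and a small-subunit protein, read 2804, 3108, 2689 and 2642 TPM in AP and 1275, 1363, 1685 and 1466 in DLP (0.96 ± 0.09 (SE), adjusted p = 3.36e-06). AP exceeded urethra for 78 genes, beside 41.4% of all genes, and with a median of 1.11. The 1 gene called lower, beside 33.4%, was Rpl3l. It passed the filter on low values only through the urethra, so this call is not taken as a result. Rps28 read 3933, 3999.9, 3202 and 3350.4 TPM in AP and 1186, 1184, 1217 and 1053 in urethra (1.64 ± 0.10 (SE), adjusted p = 5.81e-09). DLP exceeded urethra for 69 genes, with 3 lower, beside 33.8% and 29.5% of all genes, and with a median of 0.40. Rps6 read 1324, 1363, 1556 and 1401 TPM in DLP and 848, 857, 924 and 824 in urethra (0.71 ± 0.08 (SE), adjusted p = 4.48e-06).

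Rplp1 broke the order of tissues. Its urethra level was close to that of AP, 3554 ± 337 against 4023 ± 410.4 TPM (SD, n = 4 each; difference 0.18 ± 0.11 (SE), adjusted p = 0.153). Rplp1 was 1 of the 3 genes called lower in DLP than in urethra, with Rps4y2 and Rpl3l. The call of Rpl3l is not taken as a result, since it was tested only through its urethra values. Without the abundant secretory genes Rps4y2 turned from -0.37 to 0.17. Rplp1 stood at -0.36 ± 0.11 (SE), adjusted p = 0.0113, which turned to 0.23 with quantile normalization and to 0.19 without the abundant secretory genes. Leaving those secretory genes out moved the all-gene median by more than 0.1 in all 3 comparisons, to -0.28 for AP against DLP, 0.55 for DLP against urethra and 0.22 for AP against urethra. The ribosomal protein medians were then 0.31, 0.95 and 1.26, with 70, 79 and 79 genes higher, beside 8.83%, 71.9% and 49.7% of all genes. The split of all called genes turned from 4828 higher and 3133 lower to 1178 and 7682 for AP against DLP, and from 4510 and 3938 to 9591 and 1879 for DLP against urethra. Quantile normalization gave 52 higher in AP than in DLP, beside 35.2% of all genes.

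Among the paralogues, Rpl3l marked the urethra. It read 242, 245, 299 and 291 TPM in untreated urethra and 292, 312, 257 and 325 with T+E2. In AP it was listed at 0 in 3 libraries and reached at most 0.79 TPM, and in UGS at most 0.36 TPM. In untreated DLP it stood at 1.2 ± 1.8 TPM (SD, n = 4). It passed the filter on low values only through the urethra, so its difference from the other tissues is given without a test. As a share of Rpl3 and Rpl3l together it made up 24.6% ± 1.88 in untreated and 25.7% ± 3.72 (SD, n = 4) in T+E2 urethra. In T+E2 DLP it read 4.65, 0.86, 11.8 and 15.8 TPM, highest in libraries 18 and 24, the libraries with the most skeletal muscle RNA, and was not called (1.93 ± 0.67 (SE), adjusted p = 0.0977). All 12 skeletal muscle genes were lower in untreated AP and in untreated DLP than in untreated urethra; the part of muscle in the level of Rpl3l was not tested.

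Rpl36al and Rpl36a encode near-identical proteins. Rpl36al made up 48.1% ± 1.12 of both in untreated AP and 56.2% ± 1.59 (SD, n = 4) with T+E2, without overlap. Rpl36a fell (-0.45 ± 0.10 (SE), adjusted p = 0.00747) and Rpl36al was not called. The share was 51.9% ± 1.43 and 53.8% ± 1.46 in untreated and T+E2 DLP, 50.8% ± 0.68 and 50.2% ± 1.61 in urethra, and 22.6% ± 1.48 and 23.4% ± 1.45 in UGS without and with testosterone. UGS thus stood apart from all adult groups, with Rpl36a at 2608 ± 304 and Rpl36al at 758 ± 64.5 TPM without hormone. The split of reads between such copies rests on the authors' counting. Rpl22l1 made up 44% ± 4.06 of Rpl22 and Rpl22l1 in untreated AP and 62.9% ± 4.87 in UGS without hormone. Rpl7l1 made up 2.59% ± 0.26 of Rpl7 and Rpl7l1 in untreated AP and 3.86% ± 0.352 with T+E2, without overlap.

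**Figure D5:**
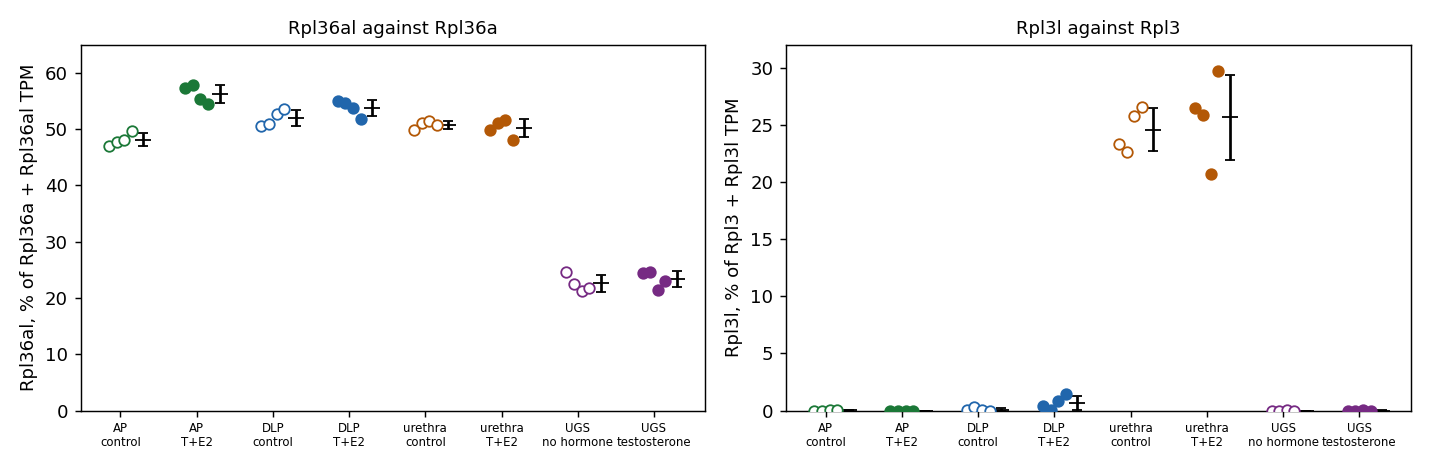
Share of a paralogue in the TPM of both genes, for Rpl36al (left) and Rpl3l (right), 1 point per library, with the mean ± SD of 4 libraries, filled for hormone arms. Rpl36al takes 21.3% to 24.7% in UGS and at least 47.0% in every adult library, and Rpl3l exceeds 20% in the 8 urethra libraries.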

How the data were processed

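RNA from whole tissue was sequenced in 32 libraries. The deposited values are TPM per gene, made by the authors; the submitters' processing notes name FastQC, STAR, RSEM and edgeR beside mouse build mm9, and the role and version of each are not given in the sources used here. TPM keeps no depth, so no counting interval is given. All 32 columns matched 1 sample each by name.

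Each tissue was fitted alone with limma 3.58.1 under R 4.3.3. The fit took log2(TPM + 1), let the prior variance follow the mean, and covered all genes with at least 1 TPM in at least 4 libraries of the fit. The call rule was an adjusted p (Benjamini-Hochberg, two-sided) under 0.05. Differences of effects used interaction contrasts over 16 libraries, and untreated tissues 1 fit of 12 libraries. Fold changes on this scale understate changes of low genes. Genes were named by a rule on called size, level and paralogue pairs; Rpl34-ps1 and Gm15772 were named after their values were seen, as were Rpl38 among the windows and Rps4x. The members, lists and alternatives were chosen with earlier results of these data known. Single values of some genes are not reported here.

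Transcript lengths were the median over protein-coding transcripts of GENCODE M21, matched for 13718 of 13780 genes. The length trend was a loess curve (span 0.3) per library fitted without the ribosomal protein genes. Start windows came from RefSeq GRCm38.p6, a build other than the authors'. The fit was tested on simulated data. Of 100 genes changed by 1 on the log2 scale it recovered 95 in AP, 92 in DLP, 92 in urethra and 87 in UGS. Of 100 changed 1.41-fold it recovered 62, 65, 70 and 26, with 8, 14, 15 and 8 false calls. The medians of the 76 subunit and stalk genes were smaller (-0.34, -0.14, 0.09 and -0.28 on the log2 scale). Recovery of changes of that size was not tested. Figures used matplotlib 3.10.9. Labels do not say that libraries of a group are separate animals or cultures, so a p-value reflects only how these libraries vary, which may be technical. Library numbers recur between tissues and letters between UGS arms, and no label says that these share a source. The correlation of same-numbered deviations ran from -0.13 to 0.23 between adult tissues. Between the UGS arms it was 0.08 for C and 0.67 for H. They were not treated as pairs in the main fits, and whether the H libraries share a source was not tested.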

Additional observations from a re-analysis of the deposited data

Results flagged for a closer look

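In 22 of 300 groups of 4 libraries examined, 1 library lay far from the other 3. Chance alone puts about 1 in 20 groups there, which is 15 of 300. In T+E2 AP these were Rpl36a at 1338 TPM in library 18, Rpl39 at 1812 TPM in library 17 and Rps24 at 1842 TPM in library 18. In untreated AP these were Rpl39 at 3132 TPM in library 7, Rpl7l1 at 64.2 TPM in library 7 and Rplp0 at 2723 TPM in library 9. In T+E2 DLP these were Rpl26 at 22.4 TPM in library 24, Rpl7 at 1474 TPM in library 24, Rps27 at 9.84 TPM in library 2, Rps28 at 1828 TPM in library 18 and Rps4x at 1767 TPM in library 24. In untreated DLP these were Rpl3l at 3.88 TPM in library 8, Rplp2 at 1681 TPM in library 9, Rps27 at 232 TPM in library 8 and Rps28 at 2154 TPM in library 9. In T+E2 urethra these were Rpl30 at 48.7 TPM in library 4, Rpl36a at 798 TPM in library 4 and Rps28 at 1020.3 TPM in library 1. In untreated urethra these were Rpl22 at 173 TPM in library 6 and Rplp1 at 4052 TPM in library 6. In UGS without hormone it was Rpl30 at 92.1 TPM in library H. The length slope of untreated AP library 8, at 0.0488, was also far from the others. The counting of Rps27 and Rpl26 is uncertain.

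For some genes the T+E2 effect differed between tissues by the interaction test (limma). Against urethra it differed in AP for 53 genes, beside 6.93% of all genes more negative and 15.7% more positive. These were led by Rpl12 (-0.85), Rplp1 (-0.77), Rps20 (-0.75), Rps24 (-0.72) and Rpl23 (-0.67), with Rpl7l1 the other way (0.34). Against DLP it differed for 3 of the 83 genes, Rplp1 (-0.55), Rpl12 (-0.54) and Rpl13 (-0.51). This stands beside 3.14% of all genes more negative and 6.33% more positive, and leaving out 1 library gave 0 to 6 genes. Values are differences of log2 fold changes.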

How the results depend on the processing

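Pseudocounts of 0.1 and 5, and no filter, moved no count of called ribosomal protein genes by over 1.5 times. Quantile normalization gave 26 lower in AP (54 in the report), 14 lower and 2 higher in DLP, 5 genes with a different AP and DLP effect, 21 with a different AP and urethra effect, and 52 higher in untreated AP than DLP. Median-of-ratios scaling gave 6 lower in DLP, 1 in UGS, and 7 (AP against DLP) and 4 (DLP against urethra) different effects. Without abundant secretory genes there were 2 higher in AP, 11 lower and 1 higher in DLP, 12 different effects between AP and DLP, and 1 lower in untreated DLP than urethra. Removing the length trend gave 14 lower and 1 higher in DLP, 20 (AP against DLP) and 4 (DLP against urethra) different effects, and with the longest transcript 23, 1, 22 and 6. A filter of 5 TPM gave 6 different effects between AP and DLP. The cause of these moves was not tested.

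With a replicate block on library letters, 6 genes were lower in UGS (0 without it). With the block on library numbers, 0 different effects were called between AP and DLP and 33 between AP and urethra. Alternatives chosen after seeing the data left out libraries rich in seminal vesicle or skeletal muscle transcripts. They gave 2 higher in AP, 0 lower in DLP, and 1 different effect between AP and DLP. Without UGS testosterone libraries B and G none was called and the median was -0.12. Shares of all genes are not given in this section for the fits of this paragraph and the next.

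Leaving out 1 library gave 30 to 55 lower and 1 to 2 higher in AP, 0 to 5 lower and 0 to 1 higher in DLP, and 0 to 54 lower in UGS. Different effects ranged from 0 to 6 (AP against DLP), 43 to 65 (AP against urethra) and 0 to 1 (DLP against urethra). Untreated counts ranged from 79 to 80 (AP against DLP), 78 (AP against urethra) and 63 to 72 higher (DLP against urethra). The direction of 2 genes turned in untreated DLP against urethra. Rplp1 was at 0.23 with quantile normalization and 0.19 without secretory genes, and Rps4y2 at 0.17 without secretory genes. TPM hides depth, so low genes such as Rpl3l outside urethra carry an unknown counting error.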

Other observations

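The share of Rpl22l1 in Rpl22 and Rpl22l1 together, genes whose proteins can replace each other, was 54.6% ± 4.5 in untreated DLP, 58.4% ± 3.47 in untreated urethra and 59.3% ± 6.08 (SD, n = 4) in UGS with testosterone. Rpl10, Rpl32, Rps21 and Rps28 had their highest group mean in untreated AP and not in UGS. Rps28 stood at 3621 ± 404 TPM in untreated AP and 3474 ± 318 in UGS without hormone, and Rps21 at 3348 ± 212 and 2809 ± 339 TPM (SD, n = 4 each).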
